A study of Mus musculus with 6 samples.

Results

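Genes that mark the precursor cells of fat were followed here as mRNA, namely Pdgfra, Pdgfrb, Dpp4, Pi16, Ly6a, Cd34, Dlk1, Anpep, Icam1 and F3. The 10 genes were chosen by symbol, with earlier results of these data known, and all 10 were found among the 22609 genes listed in the files. The cells were primary white adipocytes, obtained by isolating the stromal vascular cells of the inguinal fat (iWAT, the subcutaneous depot of the groin) of male C57BL6 mice aged 3 weeks and differentiating them in culture. RNA-Seq was run on 3 control libraries and 3 libraries with miR-182 overexpression. The labels describe a control vector and delivery by electroporation, and give control or miR182 overexpression as the genotype, whereas the methods describe transfection of a miR-182-5p mimic or a control with a lipid reagent and another age of mouse. All 6 libraries share the strain, sex, depot and culture, and the sources do not say whether the libraries of a group came from separate animals or cultures, so the p-values measure only the spread between these libraries, which may be technical. Each library held 25869810 to 28796712 reads counted on genes. The Mir182 gene was at 0 reads in every library. Libraries of poly(A) mRNA capture neither the mature microRNA nor a mimic, so for a mimic these counts do not check the labels. Whether a transcript made from a vector would have been counted at this gene is not known from the sources.

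Fat is renewed from fibroblast-like cells of the stroma that carry the PDGF receptors. In the common description of mouse subcutaneous fat, interstitial progenitors with DPP4 and PI16 on or around them give rise to committed preadipocytes. The latter are marked by ICAM1 and DLK1 and switch on Pparg, and a further stromal population carries CD142, the product of F3. SCA-1 (the product of Ly6a) and CD34 are carried by the interstitial progenitors but are not confined to them. Mature adipocytes lose most of these marks as they fill with lipid. A culture differentiated from stromal cells holds a mixture of adipocytes and cells that did not differentiate. In such a bulk sample, fewer cells of a type and less RNA per cell cannot be told apart.

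Because the treatment was a microRNA, the sequence that could pair with the markers was looked at first. The mature mouse miR-182-5p in RefSeq (GRCm38.p6, chr6:30165962-30165986, minus strand) is shown with its seed, bases 2 to 8, in capitals. The 3 matches found in the coding sequences and 3′-UTRs of the markers follow, with the matched bases in capitals.
miR-182-5p: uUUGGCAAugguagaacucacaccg
Pdgfra 3′-UTR, chr5:75197889-75197915, plus strand: tggagaatacTGCCAAAatgtgtatga
Cd34 3′-UTR, chr1:194960349-194960375, plus strand: ctagaggagcTGCCAAAaaagttggtg
Anpep coding sequence, chr7:79825345-79825371, minus strand: tctttctcctTTGCCAAtctcatccag
The transcripts and coordinates are those of GENCODE M21 on GRCm38, with the transcript of each gene that has the longest 3′-UTR, read on the sense strand. TTGCCAA, the match to bases 2 to 8, was present in the 3′-UTR of 0 of the 10 markers, against 12.5% of the 12529 tested genes with an annotated 3′-UTR. TGCCAAA, the match to bases 2 to 7 followed by an A, which overlaps TTGCCAA in 6 bases, was present in 2 of the 10, Pdgfra and Cd34, and 20.4% of the tested genes held either match. In the coding sequence TTGCCAA was present in 1 of the 10, Anpep, against 16.1% of the tested genes. The 5′-UTRs were not searched, and TGCCAAA was searched for only in the 3′-UTRs. These matches are descriptions of letters and not of binding. The sequence of the mimic itself is not given in the sources used here, and the sequence that the methods list for the assay of miR-182-5p differs from the RefSeq entry.

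Of the 10 markers, 9 had enough reads to be tested, each with at least 33 reads in every library. Differences were tested by the quasi-likelihood test of edgeR, and p-values were adjusted by the Benjamini-Hochberg method across the 13117 genes tested. A gene was taken to have risen or fallen when its adjusted p was under 0.05, and is called below when the change was also at least 1.5-fold, the cutoffs the study used. Of the 9 tested markers, 8 fell with miR-182 overexpression and 0 rose. Of all genes tested, 23.5% fell and 23.2% rose by the same rule, 46.7% in either direction. The 5 markers Anpep, Cd34, Pdgfra, Pi16 and Icam1 were called lower, where 5.48% of all genes tested were called lower, 1.97% higher and 7.45% in either direction. These shares are printed beside the 8 markers that fell and the 5 that were called as description only. Because the markers were chosen with earlier results of these data known, the comparison does not test whether they differ from other genes. The median log2 fold change was -0.71 over the 9 tested markers and -0.004 over all genes tested. For each of the 8 markers that fell, every library with miR-182 overexpression lay below every control library, as was the case for 27.5% of all genes tested.

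**Figure D1:**
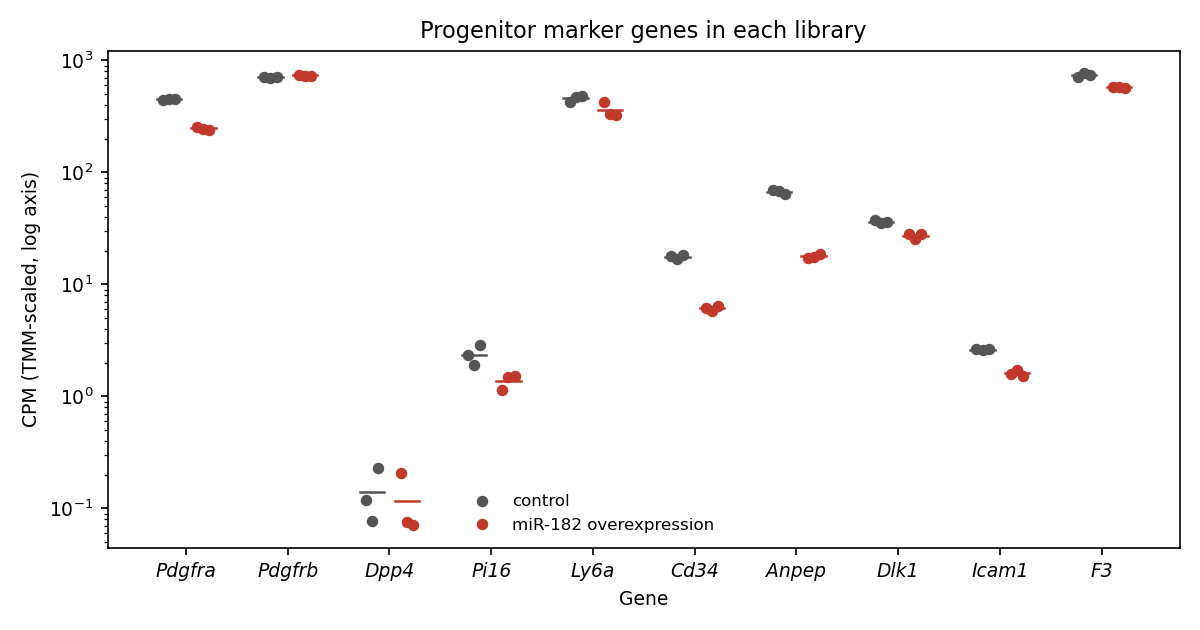
CPM (counts scaled by the TMM-normalised library size, log axis) of the 10 marker genes in 3 control libraries (grey) and 3 libraries with miR-182 overexpression (red), with points for libraries and bars for group means. Anpep and Cd34 show the widest gaps between groups, Pdgfrb lies at 690 to 741 in all libraries, and Dpp4 is at most at 0.230.

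The PDGF receptors went apart. Pdgfra encodes PDGF receptor alpha, a general surface mark of fat precursor cells, and Pdgfrb encodes PDGF receptor beta, which is carried by these cells and by the mural cells of vessels. Levels are given as CPM, counts scaled by the TMM-normalised library size. Pdgfra (chromosome 5, 75152292 to 75198215, plus strand) was at 445, 448 and 455 CPM in control replicates 1 to 3 and at 256, 246 and 241 CPM with miR-182 overexpression. The groups were far apart and the spread within each was small. Its level fell to 55.1% of control, a log2 fold change of -0.86 (SE 0.0295, adjusted p = 2.87e-11, edgeR). Pdgfrb (chromosome 18, 61045150 to 61085061, plus strand) was at 715, 690 and 710 CPM in control and at 741, 726 and 732 CPM with miR-182 overexpression. Although the 3 libraries with miR-182 overexpression lay just above the controls, as for 27.3% of all genes tested, the difference did not pass the test. The log2 fold change of Pdgfrb was 0.06 (SE 0.0279, adjusted p = 0.117, edgeR), with a 95% interval from -0.004 to 0.116. The ratio of Pdgfra to Pdgfrb reads, taken within each library, was 0.623, 0.650 and 0.641 in control and 0.345, 0.339 and 0.329 with miR-182 overexpression. The log2 ratio differed by -0.92 between groups (SD 0.0313 in control and 0.0353 with miR-182 overexpression, n = 3 each). The two-sided p was 0.1 by an exact permutation test, which with 3 libraries a group can give no smaller value. This ratio restates the fold changes of Pdgfra and Pdgfrb and is no separate evidence.

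Of the PDGF ligands, Pdgfc rose slightly, from 28.2 ± 0.257 to 36.8 ± 1.99 CPM (SD, n = 3), a log2 fold change of 0.39. Pdgfa was at 11.1 ± 1.11 and 12.3 ± 1.19 CPM (SD, n = 3) and did not pass the test. Pdgfb had 2 to 8 reads per library and was not tested. Of the 3 ligand genes tested, 1 rose and 0 fell.

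Dpp4, Pi16, Ly6a, Cd34 and Anpep were grouped here as interstitial progenitor markers, although Ly6a, Cd34 and Anpep do not single out those cells. The largest falls of all 10 genes were measured for Anpep and Cd34. Anpep encodes aminopeptidase N (CD13), a surface peptidase of stromal and myeloid cells. Anpep (chromosome 7, 79821803 to 79861059, minus strand) was at 69.4, 68.8 and 63.7 CPM in control and at 17.2, 17.7 and 18.8 CPM with miR-182 overexpression. The lowest control library was above 3 times the highest library with miR-182 overexpression. Its log2 fold change was -1.91 (SE 0.0529, adjusted p = 4.67e-12, edgeR), a level of 26.6% of control, which placed it at 12 of 13117 genes by p and at 16 by the size of the fall. Cd34 encodes a sialomucin carried by stromal, endothelial and blood-forming precursor cells. Cd34 (chromosome 1, 194938819 to 194961279, plus strand) was at 18.1, 16.7 and 18.4 CPM in control and at 6.13, 5.81 and 6.48 CPM with miR-182 overexpression, on 153 to 481 reads. The log2 fold change of Cd34 was -1.53 (SE 0.0765, adjusted p = 1.71e-09, edgeR), which left 34.7% of the control level. In the GENCODE M21 annotation an antisense gene overlaps 148 of the 7290 exon bases of Cd34. Genes on the opposite strand likewise overlap exon bases of Pdgfra (456 and 166 of 10024), Dpp4 (232 of 6319) and Pi16 (222 of 6364).

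Pi16 encodes a secreted and membrane-bound peptidase inhibitor that marks adventitial fibroblast-like cells. Pi16 (chromosome 17, 29317680 to 29330593, plus strand) was low, with 59, 50 and 75 reads in control and 33, 39 and 43 reads with miR-182 overexpression. These are 2.32, 1.91 and 2.87 CPM against 1.13, 1.48 and 1.52 CPM, so the groups did not overlap although the controls were spread widely. Its log2 fold change was -0.78 (SE 0.196, adjusted p = 0.00464, edgeR), with a 95% interval from -1.21 to -0.36 that includes changes of less than 1.5-fold.

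Ly6a encodes SCA-1, a GPI-anchored surface protein by which progenitors are sorted and which is also known to respond to interferon. Ly6a (chromosome 15, 74994877 to 74998031, minus strand) was at 428, 471 and 483 CPM in control and at 421, 334 and 328 CPM with miR-182 overexpression. Replicate 1 with miR-182 overexpression lay next to the lowest control, while the other 2 lay well below. The log2 fold change of Ly6a was -0.35 (SE 0.0738, adjusted p = 0.00136, edgeR), under the 1.5-fold line, and was -0.48 without replicate 1 of the miR-182 group. Ly6e, a relative in the same cluster of genes that also responds to interferon, was at 205, 259 and 284 CPM in control and at 357, 250 and 212 CPM with miR-182 overexpression, highest in the same replicate 1. Ly6e was chosen after its values were seen, and its part in the spread of Ly6a was not tested. The Ly6 genes resemble each other and reads with several alignments were not counted, so the level of Ly6a is uncertain to that extent.

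Dpp4 encodes the surface peptidase CD26, after which the interstitial progenitors are often named. Dpp4 (chromosome 2, 62330073 to 62412231, minus strand) was close to the limit of detection, with 3, 2 and 6 reads in control and 6, 2 and 2 reads with miR-182 overexpression. It did not pass the filter on low counts and was not tested. Summed over libraries, 11 reads in control and 10 with miR-182 overexpression gave a ratio of 0.865 (exact 95% interval from 0.329 to 2.24, counting error only), so that a change of the size seen for Pdgfra was not detectable at this depth. Against the name interstitial progenitor, its defining gene Dpp4 was thus nearly absent in both groups, and Pi16 was the next lowest of the 10 markers.

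Other genes of the same progenitors were taken from a list of 12, of which 10 were tested. Of these, 5 fell, 0 rose and 5 did not pass the test, with a median log2 fold change of -0.20. Smpd3, which encodes a neutral sphingomyelinase, fell from 11.7 ± 0.524 to 3.69 ± 0.389 CPM (SD, n = 3), a log2 fold change of -1.67. Sema3c, a secreted semaphorin, fell from 39.0 ± 1.61 to 22 ± 0.379 CPM (SD, n = 3), and Emilin2, a matrix glycoprotein, fell from 343 ± 4.44 to 221 ± 7.33 CPM (SD, n = 3). Cd55, an inhibitor of complement that marks the same cells, fell from 2.69 ± 0.278 to 1.83 ± 0.472 CPM (SD, n = 3), a log2 fold change of -0.55. Wnt2, a Wnt ligand, was at 7.30 ± 0.210 and 6.61 ± 0.693 CPM (SD, n = 3) and did not pass the test. Bmp7, a further gene of the list, was at 0 reads in every library and was named after its values were seen.

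**Figure D2:**
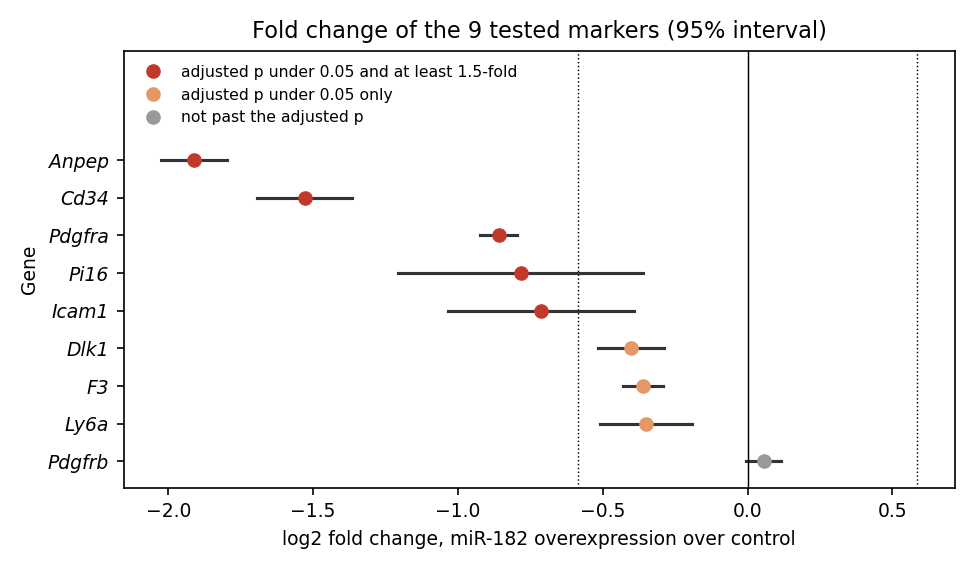
Log2 fold change of the 9 tested markers, miR-182 overexpression over control, with points for the edgeR estimate, lines for the 95% interval and dotted lines at 1.5-fold in either direction. The estimates run from -1.91 for Anpep to 0.06 for Pdgfrb, and the intervals of Pi16 and Icam1 cross the 1.5-fold line.

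Both committed preadipocyte markers fell. Dlk1 encodes the transmembrane protein also known as preadipocyte factor, which is shed from preadipocytes and holds back their differentiation. Dlk1 (chromosome 12, 109452823 to 109463336, plus strand) was at 37.2, 35.1 and 35.9 CPM in control and at 28.4, 25.6 and 27.9 CPM with miR-182 overexpression. It fell to 75.7% of control, a log2 fold change of -0.40 (SE 0.0533, adjusted p = 2.83e-05, edgeR). Icam1 encodes a cell adhesion molecule that binds the integrins of leukocytes. Icam1 (chromosome 9, 21015985 to 21028817, plus strand) had 67, 68 and 69 reads in control and 46, 45 and 43 reads with miR-182 overexpression. At 2.63 ± 0.0206 and 1.60 ± 0.0953 CPM (SD, n = 3), its log2 fold change was -0.71 (SE 0.15, adjusted p = 0.00136, edgeR), with a 95% interval from -1.03 to -0.39. An antisense gene overlaps 511 of the 4360 exon bases of Icam1, and the sources used here do not say whether counting used the strand.

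Of 10 other genes of committed preadipocytes, 6 fell, 1 rose and 3 did not pass the test, with a median log2 fold change of -0.18. Pparg, the transcription factor that drives adipocyte differentiation, fell from 190 ± 4.47 to 153 ± 5.53 CPM (SD, n = 3), a log2 fold change of -0.31. Fabp4, a fatty acid binding protein, fell from 3320 ± 132 to 2070 ± 118 CPM (SD, n = 3) and was the only gene of this list that was called. Lpl, which encodes lipoprotein lipase, and Col15a1, a basement membrane collagen, had log2 fold changes of -0.47 and -0.31. Col4a2, another collagen gene, was the 1 that rose, from 3620 ± 69.5 to 3960 ± 48.5 CPM (SD, n = 3). Col4a1, Sparcl1 and Zfp423 did not pass the test, with log2 fold changes of -0.003, -0.099 and 0.077. Col4a2 and these 3 were named after their values were seen. Pparg, Fabp4 and Lpl are also high in mature adipocytes, so they do not separate the cell types.

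F3 encodes tissue factor (CD142), the receptor that starts blood clotting and that marks a stromal population of fat. F3 (chromosome 3, 121723537 to 121735048, plus strand) was at 706, 766 and 744 CPM in control and at 581, 577 and 569 CPM with miR-182 overexpression. The libraries with miR-182 overexpression were close together and all below the controls. It fell to 77.9% of control, a log2 fold change of -0.36 (SE 0.0322, adjusted p = 6.41e-07, edgeR). Of 6 other genes of CD142-positive stromal cells, 5 were tested, of which 4 fell and 0 rose, with a median log2 fold change of -1.32. Fmo2, a flavin monooxygenase, fell from 35.3 ± 1.78 to 9.07 ± 0.667 CPM (SD, n = 3), a log2 fold change of -1.96. Mgp, which encodes matrix Gla protein, fell from 89.8 ± 4.51 to 33.1 ± 1.2 CPM and Gdf10, a secreted factor of the BMP family, fell from 202 ± 4.93 to 81.0 ± 4.07 CPM (SD, n = 3 each). Clec11a, a secreted growth factor, had a log2 fold change of -0.46. Bgn, named after its values were seen, was at 5190 ± 18.1 and 5310 ± 21.7 CPM (SD, n = 3) and did not pass the test.

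**Figure D3:**
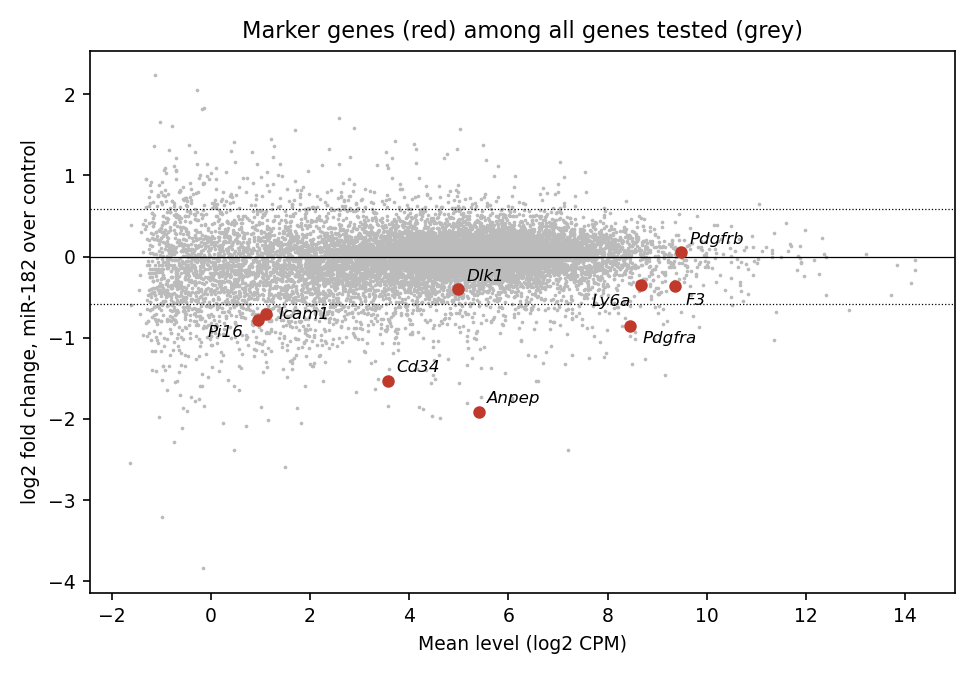
Log2 fold change (miR-182 overexpression over control) against mean level (log2 CPM) for the 13117 genes tested (grey) and the 9 tested markers (red), with dotted lines at 1.5-fold. Cd34 (-1.53) and Anpep (-1.91) lie at the lower edge of the cloud, and Pdgfrb (0.06) lies in its middle.

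To compare levels between genes, CPM was divided by the transcript length in kilobases. In control, Ly6a was highest at 525 ± 32.7 CPM per kilobase, followed by F3 at 395 ± 16.0, Pdgfrb at 130 ± 2.50 and Pdgfra at 68.6 ± 0.759 (SD, n = 3 each). Anpep followed at 17.7 ± 0.828 CPM per kilobase, then Dlk1 at 7.75 ± 0.227 and Cd34 at 6.95 ± 0.362 (SD, n = 3 each). Icam1, Pi16 and Dpp4 were lowest, at 1.04, 0.593 and 0.0268 CPM per kilobase. The ranges of neighbours in this order did not overlap, and the closest pair was Dlk1 and Cd34, with a ratio of 1.12. With miR-182 overexpression the order was the same except that Dlk1, at 5.86 ± 0.322 CPM per kilobase, stood above Anpep, at 4.71 ± 0.209 (SD, n = 3 each). The order was the same when levels were divided by all annotated exon bases of each gene.

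Relatives and partners of the markers were read from lists as well. Of 5 tested relatives of DPP4, 2 fell and 1 rose. Fap, the fibroblast activation protein and nearest relative of DPP4, fell from 7.88 ± 0.380 to 4.33 ± 0.688 CPM (SD, n = 3), a log2 fold change of -0.86, and Dpp7 and Prep had log2 fold changes of -0.45 and 0.12. Dpp6 had 1 to 3 reads. Of 5 aminopeptidases related to Anpep, 1 fell and 3 rose. Trhde fell by 0.83 on the log2 scale at 16 to 35 reads, while Enpep, Npepps and Lnpep rose by 0.39, 0.20 and 0.16, and Erap1 did not pass the test at 44.4 ± 4.14 and 43.0 ± 2.82 CPM (SD, n = 3). Of 5 tested relatives of Ly6a, 2 fell, Ly6c1 by 0.16 and Ly6d by 1.02 on the log2 scale, the latter on 4 to 14 reads, and Ly6c2 had at most 2 reads. Of the relatives of Cd34, Podxl2 fell from 14.9 ± 0.875 to 11.9 ± 0.32 CPM (SD, n = 3) and Podxl was at 0.308 ± 0.0992 and 0.421 ± 0.0964 CPM without passing the test.

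The Notch pathway, which DLK1 is known to touch, and the partners of the adhesion and clotting proteins gave mixed results. Of 4 tested genes related to Dlk1, 2 fell and 1 rose: Notch1 and its ligand Jag1 had log2 fold changes of -0.35 and -0.29, and Adam17, the protease that sheds DLK1, rose from 86.1 ± 1.76 to 102 ± 2.31 CPM (SD, n = 3). Dlk2 did not pass the test at 6 to 15 reads, and Dll1 had at most 7 reads. Of 3 tested relatives and partners of Icam1, 3 fell. Vcam1, another adhesion molecule of stromal cells, fell from 185 ± 3.10 to 128 ± 2.85 CPM (SD, n = 3), and Icam5 and Itgb2 had log2 fold changes of -0.57 and -0.74 at 49 reads or fewer, while Icam2 and Icam4 had at most 4. Of 6 tested partners of F3, 3 rose and 1 fell. The thrombin receptor gene F2r rose from 206 ± 5.68 to 275 ± 3.29 CPM and Anxa5 from 378 ± 4.31 to 472 ± 17.8 CPM (SD, n = 3 each). F2rl1 had a log2 fold change of 1.22 on 6 to 25 reads, F7, the ligand of tissue factor, had -1.01 on 6 to 19 reads, and F10 had at most 2 reads. Of 3 tested relatives of Pi16, Crispld2 fell from 23.3 ± 0.720 to 17.1 ± 1.09 CPM and Glipr2 rose from 97.7 ± 1.11 to 114 ± 9.19 CPM (SD, n = 3 each), while Crispld1 had at most 6 reads.

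General stromal genes did not share one direction. Of 12 tested, 5 rose, 4 fell and 3 did not pass the test, with a median log2 fold change of -0.04. Thy1, which encodes the surface protein CD90, rose from 524 ± 19.6 to 596 ± 15.4 CPM, and Cd44, the hyaluronan receptor, rose from 107 ± 4.53 to 157 ± 7.79 CPM (SD, n = 3 each). Nt5e, which encodes the surface enzyme CD73, fell from 15.3 ± 0.426 to 8.80 ± 0.162 CPM. The matrix proteoglycan genes Lum and Dcn fell by 1.01 and 0.65 on the log2 scale.

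Of 12 mature adipocyte markers tested, 8 fell, 2 rose and 2 did not pass the test, with a median log2 fold change of -0.43, and their summed level went from between 8630 and 8970 CPM in control to between 5750 and 6640 CPM with miR-182 overexpression. Adipoq, which encodes adiponectin, fell from 928 ± 20.6 to 675 ± 56.0 CPM (SD, n = 3), a log2 fold change of -0.46. Car3, Retn, Pnpla2 and Dgat2 had log2 fold changes of -1.02, -0.85, -0.69 and -0.61. Plin4, another lipid droplet coat gene, rose from 739 ± 16.2 to 1040 ± 29.6 CPM (SD, n = 3), and Lep, which encodes leptin, rose by 0.37 on the log2 scale. These 2 were named after their values were seen. The part of differentiation to adipocytes in the marker results was not tested. Plin1, the lipid droplet coat gene, was at 663 ± 4.80 and 636 ± 51.5 CPM (SD, n = 3) and did not pass the test.

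**Figure D4:**
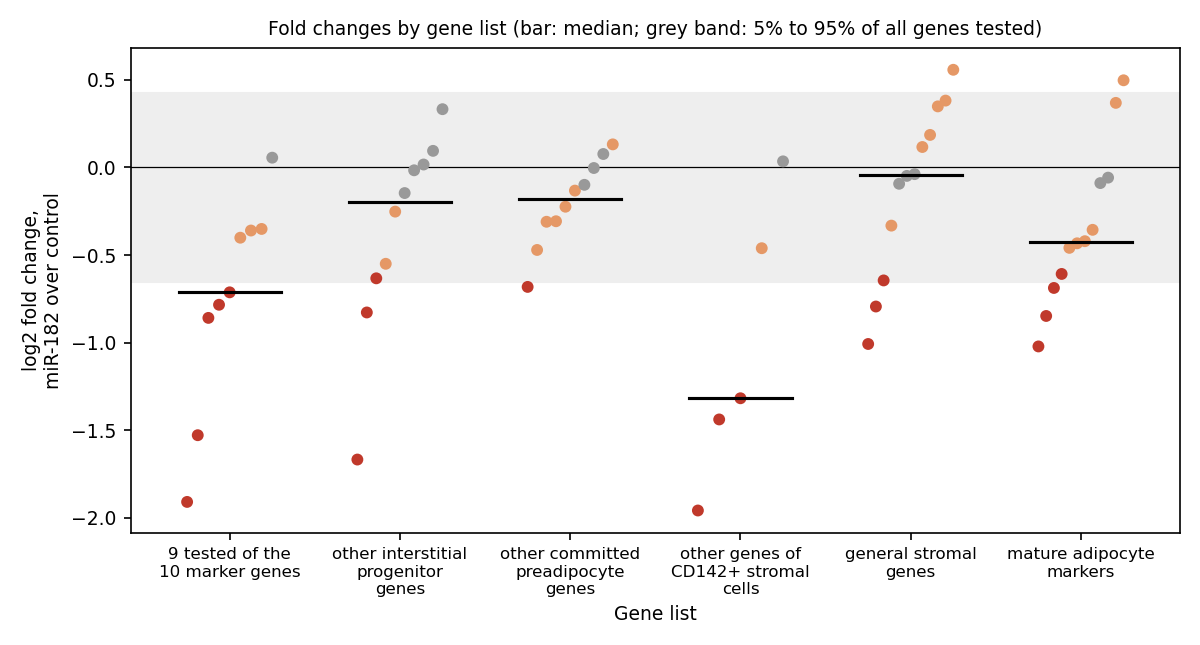
Log2 fold change of the tested genes of 6 lists, miR-182 overexpression over control, in red where called, in orange where only the adjusted p passed and in grey where it did not, with bars for list medians and a grey band from -0.65 to 0.43 that holds all but the lowest 5% and the highest 5% of the genes tested. Medians run from -1.32 for the other genes of CD142-positive stromal cells to -0.04 for the general stromal genes.

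Markers of other cells that carry some of these genes were checked, and their part in the results was not tested. Some markers of macrophages were near 0, with at most 4 reads of Ptprc, but not all. Cd68, named after its values were seen, had 118 to 157 reads and did not pass the test. Of 4 macrophage genes tested, 1 fell, Lyz2 on 18 to 34 reads, and Csf1r was at 6.08 ± 0.462 and 6.55 ± 0.764 CPM (SD, n = 3). The 8 macrophage genes summed to 14.5 to 15.6 CPM in control and 12.4 to 15.8 CPM with miR-182 overexpression. Endothelial cells carry Cd34, and their 6 markers summed to 8.89 to 10 CPM in control and 5.47 to 6.27 CPM with miR-182 overexpression. The highest of them in control was Tek, which fell from 6.05 ± 0.608 to 2.43 ± 0.247 CPM (SD, n = 3), and Kdr, a VEGF receptor gene named after its values were seen, was at 1.59 ± 0.426 and 2.14 ± 0.201 CPM and did not pass the test. The defining markers Pecam1 and Cdh5 were at most at 11 and 17 reads. Of the 4 endothelial genes tested, 1 fell. Mural cells carry Pdgfrb, and their 7 markers summed to 2380 to 2500 CPM in control and 2920 to 3130 CPM with miR-182 overexpression. Nearly all of this was Acta2, a contractile actin that fibroblasts in culture also make, which rose from 2360 ± 68.7 to 2890 ± 121 CPM (SD, n = 3). Rgs5 had at most 9 reads, and Cspg4 rose from 50.7 ± 2.42 to 71.8 ± 7.25 CPM (SD, n = 3). Abcc9 and Kcnj8 fell by 0.92 and 1.17 on the log2 scale, the latter on 5 to 16 reads. Of 6 mural genes tested, 2 thus rose and 2 fell.

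Mesothelial cells, which line the abdominal organs, left few traces: Msln and Upk3b had at most 11 and 5 reads, and the 5 genes summed to 23.4 to 24.5 CPM in control and 35.3 to 46.9 CPM with miR-182 overexpression. This sum was mostly Krt19, a keratin, which rose from 22.8 ± 0.595 to 39.7 ± 5.84 CPM (SD, n = 3). It was the 1 gene of the 2 tested that passed. The muscle genes Myod1 and Pax7 were at 0 reads in every library, which allows up to 3 reads each, and the 5 muscle genes summed to 0.306 to 0.728 CPM and 0.106 to 0.343 CPM. Of 3 Schwann cell genes tested, 1 fell and 2 did not pass the test. S100b fell from 3.27 ± 0.1 to 2 ± 0.53 CPM (SD, n = 3), and Sox10 did not pass at 8 to 17 reads.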

How the data were processed

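For each sample the authors deposited a list of unnormalised HTSeq counts for 22609 gene symbols, from which 5 tally lines were removed. The submitters' processing notes name bcl2fastq, TopHat2, HTSeq and mm9, and the labels describe stranded poly(A) libraries. Versions, annotation and strand setting are not given in the sources used here. Of uniquely aligned reads, 12.7% to 13.0% were assigned to no counted feature.

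Counts were analysed in R 4.3.3 with edgeR 4.0.16 (TMM scaling, filterByExpr set to 10 counts, glmQLFit followed by glmQLFTest, two-sided, Benjamini-Hochberg adjustment over 13117 genes). SE is the log2 fold change divided by the root of the F statistic. The fits were tested on simulated data. Replicates were not copies: chi-square per degree of freedom was 2.08 to 6.90 within groups. The fit had no replicate block.

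Named genes were the 10 markers and, from each other list, the first 2 genes and up to 4 with the largest change past the adjusted p. Of the genes this rule names, 1 is not reported here. The markers and lists were chosen with earlier results of these data known. Coordinates and lengths came from GENCODE M21 (GRCm38), not the build of the notes, and served for annotation only. Alternatives were DESeq2 1.42.0, limma 3.58.1 (voom), DESeq2 size factors, upper-quartile factors, no filter on counts, a floor of 10 counts for each sample, the replicate block, each sample left out, a 2-fold cutoff and glmTreat. Python 3.11.15, pandas 2.3.3, scipy 1.17.1 and matplotlib 3.10.9 were used.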

Additional observations from a re-analysis of the deposited data

How the results depend on the processing

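For the 9 tested markers, 117 values were recomputed under the alternatives, and all 117 kept their direction and their side of the adjusted p threshold: 8 markers fell and Pdgfrb did not pass in each. Samples with the same replicate number did not deviate together (correlations of -0.185 to -0.044, against -0.056 to 0.119 between different numbers), so the numbers were not taken to pair them. With the replicate number as a block, 8 markers passed the adjusted p and 5 were called, and 5716 and 925 genes did so over all genes, which changed no call of a marker. Leaving out 1 sample at a time, the count of markers past the adjusted p was 8 and that of called markers 5 in every fit, and over all genes 902 to 1011 were called. Pi16 moved most, from -0.92 without control replicate 2 to -0.62 without control replicate 3. The 1.5-fold line decided more: glmTreat against a 1.5-fold change called 3 markers (Pdgfra, Cd34 and Anpep) and 298 genes, and a 2-fold cutoff called 2 markers (Cd34 and Anpep) and 280 genes. Depth limits Dpp4, which the filter on counts kept out of the main fit, and Pi16 and Icam1, whose standard errors were the largest of the 9. With no filter on counts all 10 markers were tested and 8 passed the adjusted p, with Dpp4 and Pdgfrb not among them. The median log2 fold change of all genes lay between -0.022 and 0 in every fit.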
